A study of Homo sapiens with 8 samples.

Results

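Desmosomes were read in cultured human breast epithelial cells through 10 genes: the desmocollins DSC2 and DSC3, the desmogleins DSG1, DSG2 and DSG3, the plaque proteins DSP, PKP1, PKP2 and PKP3, and the membrane protein PERP. The genes were chosen by name from the desmosomal cadherins and plaque genes, with earlier results of these data known. They make up 10 of the 19775 genes with a probe set of their own. A probe set is a group of array probes that together give 1 signal for a transcript. The 10 genes had 24 probe sets that name no other gene. Each gene is given by its brightest probe set over all arrays, and the 14 other probe sets serve as a check. DSG1 and DSP had 1 probe set each, so they had no such check.

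Desmosomes are button-like junctions that hold neighbouring epithelial cells together and tie their keratin filaments into 1 network across the sheet. Desmocollins and desmogleins are the adhesive cadherins that meet between the cells. Plakoglobin and the plakophilins bind their tails inside the cell, and desmoplakin links that plaque to keratin. In stratified epithelia the cadherins differ by layer, with DSC3 and DSG3 strongest in the basal cells and DSG1 in the upper layers, while DSC2 and DSG2 are the forms of simple epithelia. In the breast, DSC3 and DSG3 are known mainly from the basal, myoepithelial cells.

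RNA of 8 samples was hybridised to Affymetrix arrays, 2 arrays in each of 4 groups. MCF-10F is a spontaneously immortalized, normal-like breast epithelial line. The trMCF clone 11 cells descend from MCF-10F cells transformed with a high dose of estradiol and are 1 ring-cloned colony, so the group stands for 1 clone. The other 2 groups were trMCF clone 11 kept for 26 days in all trans-retinoic acid (ATRA), the retinoid that activates the retinoic acid receptors, at 1 μM or at 10 μM. No source says if a group's 2 arrays hold separate cultures, so p-values measure only the spread between these arrays, which may be technical, and none says if the untreated clone arrays held cells given the DMSO vehicle. Replicate 1 of trMCF clone 11 carries a tag of normal tissue against its title and was grouped by its title. The study set the clone against its parent line and asked how ATRA changed the clone.

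Signals are given as log2 values, so a step of 1 is a doubling. Array medians lay between 47.3 and 48.8 on the linear scale. The lower quartile of each array lay between 16.9 and 18.4, and a signal of 16, which is 4 on the log2 scale, was taken as the level below which a probe set is called dim. The 2 trMCF clone 11 arrays stood farthest apart, with 7.71% of probe sets over 2-fold apart, where the MCF-10F pair had 3.48%, the 1 μM pair 0.126% and the 10 μM pair 0.211%. All 8 epithelial markers measured, KRT5, KRT8 and EPCAM among them, were above a signal of 16. So were all 3 cardiac muscle and all 3 melanocyte markers measured, so passing this level does not show that a gene is expressed. Of the fibroblast markers 1 of 10 was dim (LUM), and the summed signal of that list was 2365 to 3452 in MCF-10F, 882 to 1077 in trMCF clone 11, 538 to 598 at 1 μM and 494 to 528 at 10 μM.

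Most of the 10 genes lay lower on the ATRA arrays than on the untreated clone arrays, and DSC3 had the largest change. DSC3 rose in trMCF clone 11 over MCF-10F and fell below MCF-10F at both doses of ATRA. DSP fell at 10 μM against the untreated clone, and DSC2 fell at 10 μM against MCF-10F. None of DSG1, DSG2, DSG3, PKP1, PKP2, PKP3 and PERP changed in any comparison by its brightest probe set, at an adjusted p under 0.05 in limma, a linear model fitted to all probe sets at once.

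Counted by comparison, 1 of 10 genes rose in trMCF clone 11 over MCF-10F, where 1.56% of all probe sets rose. At 1 μM 1 of 10 fell against the untreated clone, beside 0.683% of probe sets that fell, and 1 of 10 against MCF-10F, beside 0.309%. At 10 μM 2 of 10 fell against the untreated clone, beside 2.98%, and 2 of 10 against MCF-10F, beside 1.24%. These shares are over all probe sets, dim ones included. By the brightest probe set of each gene, 4.53%, 1.9%, 0.612%, 7.83% and 2.56% of all genes were called in the same order of comparisons, in either direction. With so few genes on the desmosome list, 1 call among them moves its share by a large step, so the counts above rest on DSC3, DSP and DSC2. The genes were chosen with earlier results of these data known, so the counts set beside these shares are not a test. The count at 10 μM against the untreated clone also depended on the probe sets used. With the mean of all probe sets of a gene it was 6 of 10, beside 4.09% of genes that fell, and DSC2 (-0.66, adjusted p = 0.0429), DSG3 (-0.85, adjusted p = 0.0222), PKP3 (-0.61, adjusted p = 0.0481) and PERP (-0.71, adjusted p = 0.046) joined DSC3 and DSP.

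The direction was shared more widely than the calls. DSG1 was dim in every group and is left out of these counts. In 8 of the 9 other genes both 1 μM arrays lay below both untreated clone arrays, where 29.9% of all probe sets that reached a signal of 16 in some group did so. At 10 μM this held for 8 of 9 genes, beside 24.6% of such probe sets. The median change of the 10 genes was -0.43 at 1 μM and -0.47 at 10 μM, beside -0.06 and -0.01 over all genes. Both doses were set against the same untreated arrays, so the counts at 1 μM and 10 μM are not independent of each other. In trMCF clone 11 against MCF-10F the picture was mixed, with 5 of 9 genes higher on both clone arrays (27.7% of such probe sets) and 1, DSC2, lower (21.2%).

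**Figure D1:**
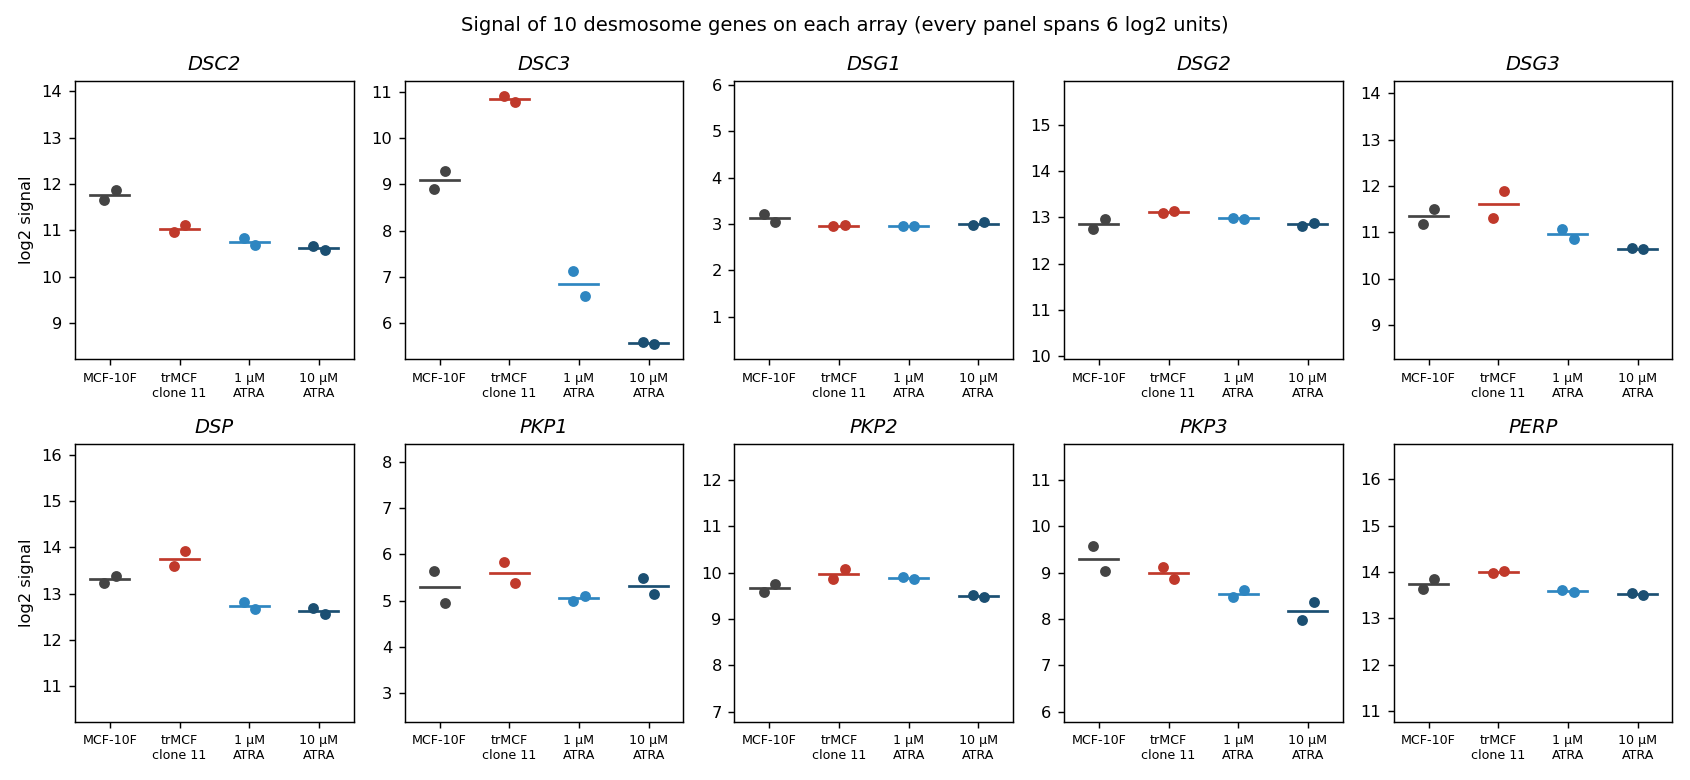
Each panel plots the log2 signal of 1 gene (brightest probe set) on the 8 arrays, with points for arrays and a line for the group mean of 2 arrays. DSC3 spans 5.25 log2 units between its group means, the other genes at most 1.15.

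Of the 3 genes that changed, DSC3 and DSC2 are neighbours on chromosome 18, and DSP lies on chromosome 6. The cluster on chromosome 18 runs DSC3, DSC2, DSC1, DSG1, DSG4, DSG3, DSG2. The 250 bases before each start are printed for these 3 genes, since they are the ones that changed (RefSeq, GRCh38.p14, 5′ to 3′ on the gene's strand). They are DSC3 at chr18:31042743-31042992 (minus strand), the farther upstream of the 2 listed starts of DSC2 at chr18:31102422-31102671 (minus strand) and DSP at chr6:7541421-7541670 (plus strand). Capitals mark matches on either strand to 5 motifs: the AP-1 site TGANTCA, the E-box CAGGTG bound by SNAIL-type repressors, the Grainyhead motif AACCGGTT, the nuclear receptor half-site AGGTCA and the Sp/KLF motif GGGCGG.
DSC3: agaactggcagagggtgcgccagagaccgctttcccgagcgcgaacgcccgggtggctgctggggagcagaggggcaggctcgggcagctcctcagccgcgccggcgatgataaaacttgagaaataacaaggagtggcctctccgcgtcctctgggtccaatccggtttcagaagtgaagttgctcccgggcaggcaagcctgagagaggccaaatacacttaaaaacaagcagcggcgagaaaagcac
DSC2: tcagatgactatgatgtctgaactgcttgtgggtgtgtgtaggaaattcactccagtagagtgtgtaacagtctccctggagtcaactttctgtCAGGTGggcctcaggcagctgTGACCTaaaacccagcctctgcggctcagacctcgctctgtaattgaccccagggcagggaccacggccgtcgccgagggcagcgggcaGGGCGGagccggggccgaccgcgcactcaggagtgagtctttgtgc
DSP: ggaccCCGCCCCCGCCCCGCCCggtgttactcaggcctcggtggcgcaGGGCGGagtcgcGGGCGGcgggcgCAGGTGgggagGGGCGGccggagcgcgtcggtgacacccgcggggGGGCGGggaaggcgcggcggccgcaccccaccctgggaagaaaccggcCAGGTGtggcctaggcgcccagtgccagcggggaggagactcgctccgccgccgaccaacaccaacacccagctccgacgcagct
In DSC3 none of the 5 motifs matched. The printed window of DSC2 held an E-box, a half-site on the opposite strand (TGACCT) and a GGGCGG. The window of its other listed start held Sp/KLF matches only, with no E-box and no half-site. DSP held 2 E-boxes and 7 Sp/KLF matches, 3 of them touching at its far end. Over all 35116 promoter windows of this length, 17.5% held the E-box, 12.1% the half-site, 42.6% the Sp/KLF motif, 6.57% the AP-1 site and 0.117% the Grainyhead motif. Of the 9 windows listed for 8 of the 10 genes, 4 held an E-box, 1 a half-site, 6 the Sp/KLF motif, 1 the AP-1 site (PERP) and 0 the Grainyhead motif. A match is a run of letters, not a measured site, and a window without a match says only that the letters are not in it. PKP2 and PKP3 had no entry.

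DSC3, the desmocollin of basal cells, had log2 signals of 8.89 and 9.28 in MCF-10F, 10.90 and 10.77 in trMCF clone 11, 7.12 and 6.58 at 1 μM and 5.60 and 5.56 at 10 μM. The 4 groups did not overlap, and they ran in the order clone, MCF-10F, 1 μM, 10 μM from high to low. DSC3 was 3.36-fold higher in trMCF clone 11 than in MCF-10F (log2 change 1.75, SE 0.24, adjusted p = 0.0289 in limma). It was 15.8-fold lower at 1 μM than in the untreated clone (-3.98, SE 0.24, adjusted p = 0.0129) and 38.0-fold lower at 10 μM (-5.25, SE 0.218, adjusted p = 0.000551). At both doses DSC3 lay below the level of the parent line. Against MCF-10F, DSC3 was 4.70-fold lower at 1 μM (-2.23, adjusted p = 0.0341) and 11.3-fold lower at 10 μM (-3.50, adjusted p = 0.00114). In bulk RNA, fewer cells that make a transcript and less of it per cell cannot be told apart.

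The other 2 probe sets of DSC3 gave the same 5 calls, with the clone highest, MCF-10F next and the ATRA arrays lowest. The second brightest stood at 8.21 and 8.09, 9.88 and 9.41, 6.05 and 5.70, and 4.25 and 5.09 in the same order of groups and replicates, and the third at 6.17 and 6.64, 7.80 and 7.91, 3.97 and 4.02, and 3.64 and 3.34. On the third, the ATRA arrays lay at or under the dim level of 4, so the order of the doses was not read there, and its falls have only a bound. The change in the clone over MCF-10F was 1.5 and 1.46 on these probe sets, at adjusted p of 0.0323 and 0.0267. Against the untreated clone the second brightest gave -3.77 with an adjusted p of 0.0129 at 1 μM, and at 10 μM -4.98 with one of 0.00149. The third was at least 14.5-fold lower than in the clone at either dose, taking the dim level in place of the ATRA signals (adjusted p = 0.0123 and 0.000551 from the fit of the measured values).

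The 10 μM changes of DSC3 held in every alternative fit that was run, 17 for each comparison, with log2 changes from -5.31 to -4.86 against the untreated clone and from -3.70 to -3.30 against MCF-10F. The other calls of DSC3 were lost in some alternative fits, while the size of the change moved little. In a limma fit of only the 4 arrays compared, the rise in the clone lost its call (adjusted p = 0.103). With signals under 16 set to 16, limma called neither that rise (adjusted p = 0.122) nor the falls at 1 μM against the clone (adjusted p = 0.0722) and MCF-10F (adjusted p = 0.171). With the replicate number as a block, the fall at 1 μM against MCF-10F missed the test (adjusted p = 0.0663). Calls were also lost in fits without 1 array. Such a fit has fewer degrees of freedom, and where it leaves a group with 1 array, that array is assumed to vary like the other groups. The rise in the clone lost its call without MCF-10F replicate 1 (1.55, adjusted p = 0.127), without trMCF clone 11 replicate 1 (1.68, adjusted p = 0.0603) and without either 1 μM array (1.75, adjusted p = 0.103). The fall at 1 μM against the clone lost it without 1 μM replicate 1 (-4.25, adjusted p = 0.23) or replicate 2 (-3.71, adjusted p = 0.305). The fall at 1 μM against MCF-10F lost it without any 1 of the 4 arrays compared, at changes of -2.51 to -1.96 and adjusted p from 0.0768 to 0.386.

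**Figure D2:**
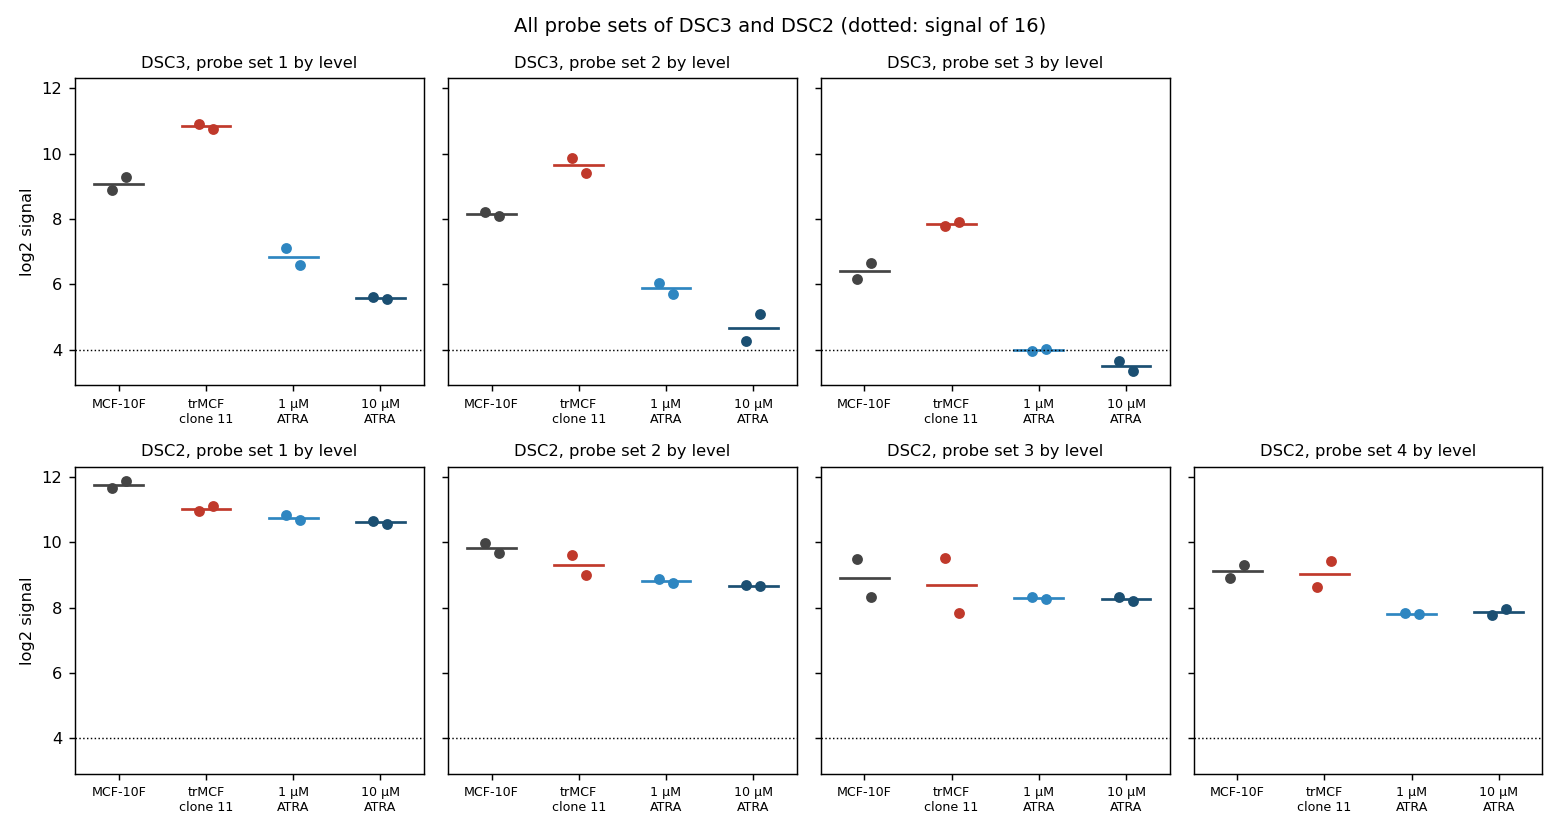
Log2 signal of each probe set of DSC3 (top) and DSC2 (bottom) on the 8 arrays, with a line at the mean of each group of 2 and a dotted line at a signal of 16. All 3 probe sets of DSC3 are highest in the clone and lowest with ATRA, the dimmest reaching the dotted line there, while the 4 of DSC2 stay within 1.29 log2 units between group means.

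DSC2, the desmocollin of simple epithelia, had log2 signals of 11.66 and 11.88 in MCF-10F, 10.96 and 11.11 in trMCF clone 11, 10.83 and 10.69 at 1 μM and 10.67 and 10.57 at 10 μM. MCF-10F was the highest group and the 3 clone groups lay close together below it, in the order clone, 1 μM, 10 μM without overlap. DSC2 was 2.22-fold lower at 10 μM than in MCF-10F (-1.15, SE 0.147, adjusted p = 0.0145 in limma). The change in the untreated clone against MCF-10F was -0.73 (95% interval -1.12 to -0.34, adjusted p = 0.0708), and that at 1 μM against MCF-10F was -1.01 (adjusted p = 0.0907). ATRA against the untreated clone gave -0.28 at 1 μM (95% interval -0.67 to 0.11) and -0.42 at 10 μM (-0.77 to -0.08), neither of which passed the test. With the mean of its 4 probe sets the change at 10 μM was -0.66, which passed (adjusted p = 0.0429). By their brightest probe sets, both clone arrays lay above MCF-10F for DSC3 and below it for DSC2, a difference that missed the test for DSC2 and that overlapped between the arrays on 2 of its 4 probe sets (-0.07 and -0.21).

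The fall of DSC2 at 10 μM against MCF-10F lost its call without 10 μM replicate 1 (-1.20, adjusted p = 0.135), without 10 μM replicate 2 (-1.11, adjusted p = 0.172) and without either 1 μM array (-1.15, adjusted p = 0.0547). The next brightest of its 4 probe sets gave -1.16 with an adjusted p of 0.0561. Conversely, the lower level in the untreated clone passed the test when trMCF clone 11 replicate 2 was left out (-0.81, adjusted p = 0.0412) or all 8 arrays were fitted together (-0.73, adjusted p = 0.0283). The dimmest of its probe sets by level stood at 8.64 and 9.43 in the clone and 7.78 and 7.95 at 10 μM, and it fell there by 1.17 on the log2 scale (adjusted p = 0.0482). At 1 μM it stood at 7.83 and 7.80, a change of -1.22 that missed the test (adjusted p = 0.101). A further probe set had 9.53 and 7.84 on the 2 clone arrays, so the arrays of 1 group were farther apart on it than any pair of its group means.

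No desmoglein passed the test by its brightest probe set. DSG3, the desmoglein of basal cells and the target of antibodies in pemphigus vulgaris, had log2 signals of 11.19 and 11.51 in MCF-10F, 11.31 and 11.90 in trMCF clone 11, 11.08 and 10.86 at 1 μM and 10.66 and 10.63 at 10 μM. The arrays of MCF-10F and the clone overlapped, and every ATRA array lay below them. The change against the untreated clone was -0.63 at 1 μM (95% interval -1.24 to -0.03, adjusted p = 0.248) and -0.96 at 10 μM (95% interval -1.48 to -0.43, adjusted p = 0.053). At 10 μM it passed the test in 5 of 17 alternative fits, among them the one without trMCF clone 11 replicate 1 (-1.25, adjusted p = 0.0195). The second probe set of DSG3 gave -0.61 and -0.75 in the same comparisons (adjusted p = 0.175 and 0.07).

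DSG2, the desmoglein found in every tissue with desmosomes, was near the top of the array, with log2 signals between 12.76 and 13.13. Its 4 group means lay within 0.26 of each other. The widest of its changes on this probe set was -0.26 at 10 μM against the untreated clone (95% interval -0.57 to 0.06, adjusted p = 0.358), which leaves out the size of change that DSC3 had. Its dimmer probe set gave -0.36 there (95% interval -0.81 to 0.09) and 0.52 in the clone over MCF-10F (95% interval -0.0021 to 1.03, adjusted p = 0.253). DSG1, the desmoglein of the upper epidermis, was dim on every array, with signals between 2.95 and 3.22, and it was the 1 gene of the 10 below a signal of 16 in every group. No order was read from its values.

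DSP encodes desmoplakin, the plaque protein that joins the cadherins to keratin filaments. It had log2 signals of 13.22 and 13.39 in MCF-10F, 13.60 and 13.91 in trMCF clone 11, 12.82 and 12.66 at 1 μM and 12.69 and 12.56 at 10 μM. The clone arrays were the highest, MCF-10F came next, and the 4 ATRA arrays lay below both, with the 2 doses overlapping. DSP fell 2.19-fold at 10 μM against the untreated clone (-1.13, SE 0.164, adjusted p = 0.0137 in limma). At 1 μM the change was -1.01 (95% interval -1.45 to -0.58, adjusted p = 0.057), close to that at 10 μM. The call at 10 μM was lost without 10 μM replicate 1 (-1.20, adjusted p = 0.115) or replicate 2 (-1.06, adjusted p = 0.125), while the change at 1 μM passed the test without trMCF clone 11 replicate 2 (-0.86, adjusted p = 0.0368) and with all 8 arrays in the fit (-1.01, adjusted p = 0.0198). In the clone over MCF-10F DSP gave 0.45 (adjusted p = 0.234), and at 10 μM against MCF-10F -0.68 (adjusted p = 0.108), which passed the test without either clone array (-0.68, adjusted p = 0.0424).

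The plakophilins are armadillo proteins that bind desmoplakin and cluster the cadherins. PKP3 had log2 signals of 9.58 and 9.03 in MCF-10F, 9.13 and 8.86 in trMCF clone 11, 8.47 and 8.62 at 1 μM and 7.99 and 8.36 at 10 μM, with MCF-10F and the clone overlapping and the 10 μM arrays lowest. Its change at 10 μM was -0.82 against the clone (adjusted p = 0.0853) and -1.13 against MCF-10F (95% interval -1.67 to -0.60, adjusted p = 0.0642). The latter passed the test in 5 of 17 alternative fits, including those without MCF-10F replicate 2 (-1.41, adjusted p = 0.042) and without either clone array (-1.13, adjusted p = 0.0391). Its dimmer probe set gave -0.56 there (adjusted p = 0.134).

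PKP2, the plakophilin also known from heart muscle, had 9.58 and 9.76 in MCF-10F, 9.86 and 10.08 in trMCF clone 11, 9.90 and 9.87 at 1 μM and 9.51 and 9.48 at 10 μM. The 1 μM arrays lay between the 2 clone arrays, and the 10 μM arrays were the lowest of all 8. Its change at 10 μM against the clone was -0.47 (95% interval -0.81 to -0.14, adjusted p = 0.109). The second probe set of PKP2, far dimmer, gave -0.06 there with overlapping arrays. On it the 1 μM arrays, at 4.47 and 4.41, were the lowest, so it did not repeat this order. PKP1, the plakophilin of stratified epithelia, was faint, between 4.94 and 5.83, and the arrays of different groups overlapped in 4 of its 6 comparisons. Its changes were -0.56 at 1 μM and -0.29 at 10 μM against the clone (95% intervals -1.24 to 0.12 and -0.92 to 0.34).

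PERP encodes a membrane protein that sits in desmosomes and was first known as a target of the p53 family. Its brightest probe set stood at 13.63 and 13.84 in MCF-10F, 13.99 and 14.03 in trMCF clone 11, 13.62 and 13.58 at 1 μM and 13.55 and 13.51 at 10 μM. The clone arrays were the highest and the ATRA arrays the lowest, though the 1 μM and MCF-10F arrays nearly met (13.62 and 13.63). The change against the untreated clone was -0.41 at 1 μM (adjusted p = 0.223) and -0.48 at 10 μM (95% interval -0.80 to -0.17, adjusted p = 0.0872). A second probe set, at 13.27 and 13.08 in the clone and 12.37 and 12.45 at 10 μM, fell by 0.77 on the log2 scale (adjusted p = 0.0302), so the 2 brightest probe sets of PERP fell on different sides of the threshold. On the second, MCF-10F stood at 12.40 and 12.63, and the arrays of both doses overlapped it. The other 3 probe sets of PERP, which were dimmer, gave -1.40, -0.61 and -0.28 at 10 μM against the clone, and none of the 3 passed the test.

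**Figure D3:**
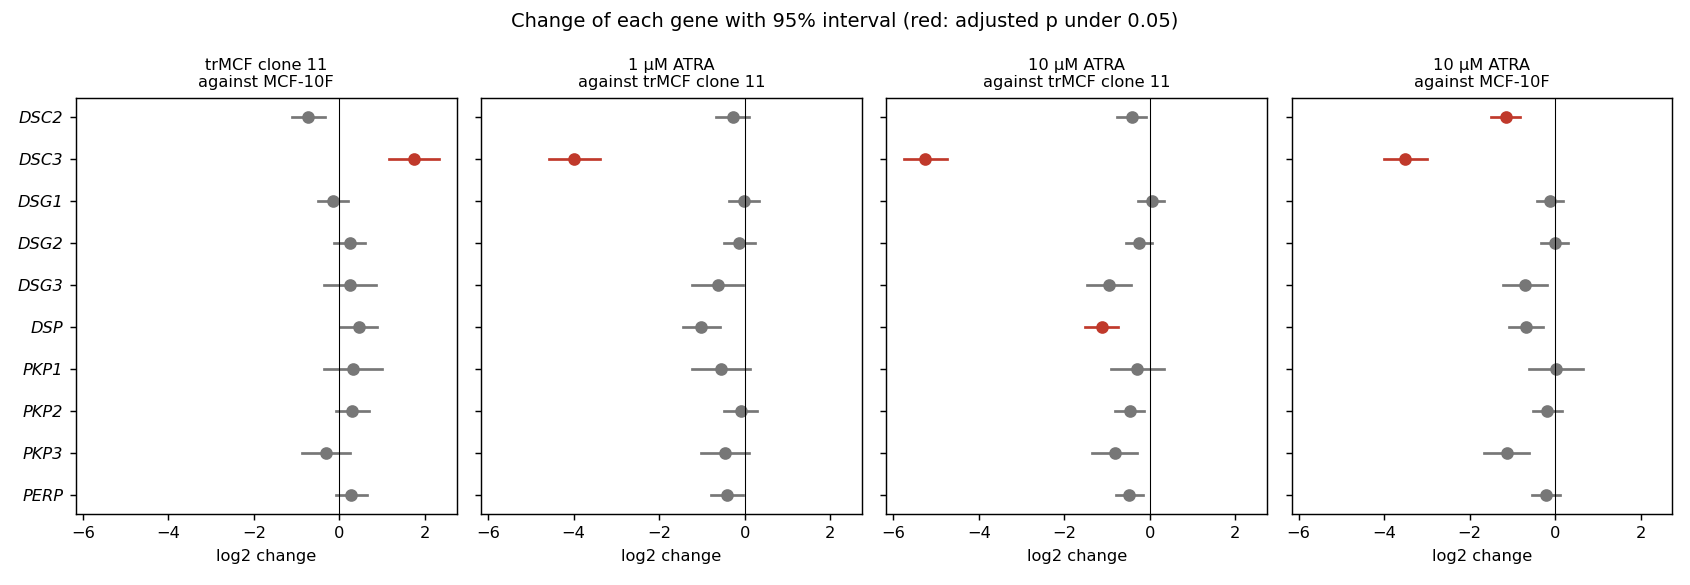
Log2 change of each gene by its brightest probe set (point) with its 95% interval (line) in 4 comparisons, red where the adjusted p was under 0.05. DSC3 lies to the right of 0 in the clone and far to its left in the 3 ATRA comparisons, and the other genes lie within 1.15 of 0.

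Between the 2 doses no member was called. The comparison of 10 μM with 1 μM had 0 calls among all 54613 probe sets at an adjusted p under 0.05 in limma (0% of probe sets, with 922 or 1.69% at an unadjusted p under 0.05), and 0 also when only the 4 arrays of the 2 doses were fitted. By their brightest probe sets, DSC3 and PKP2 were the 2 genes with an unadjusted p under 0.05. DSC3 was 2.41-fold lower at 10 μM (-1.27, 95% interval -1.78 to -0.75, adjusted p = 1 in limma). That probe set and the second brightest of DSC3 (-1.21) were among the 32 past a fold of 2 with an unadjusted p under 0.05 (0.0586% of probe sets). PKP2 gave -0.39 (95% interval -0.72 to -0.05), but its dimmer probe set gave 0.18, with both 10 μM arrays above both 1 μM arrays. The dimmer probe set of PKP3 also had an unadjusted p under 0.05 (-0.41). In 7 of the 9 genes other than DSG1 both 10 μM arrays lay below both 1 μM arrays, where 18.1% of probe sets that reached a signal of 16 in some group did so, and in PKP1 they lay above.

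The partners of these genes were read from lists written from general knowledge, also with earlier results of these data known. Of 8 other desmosome genes, 2 fell at 10 μM against the untreated clone, beside 7.83% of all genes called in either direction. In the other comparisons limma called 0 of the 8, with 0 to 2 at an unadjusted p under 0.05, a count given without the share of all genes. JUP, which encodes plakoglobin, the catenin that binds the tails of the desmosomal cadherins, stood at 10.65 and 10.18 in MCF-10F, 11.33 and 11.01 in trMCF clone 11, 10.02 and 9.80 at 1 μM and 9.60 and 9.79 at 10 μM. Its order of groups was that of DSP, with the clone highest and the ATRA arrays lowest. JUP fell by 1.47 in log2 units at 10 μM (adjusted p = 0.0129), and at 1 μM its change was -1.26 (adjusted p = 0.058). The call at 10 μM was lost without either 10 μM array (-1.38 and -1.57, adjusted p = 0.129 and 0.0956). KAZN, which encodes kazrin, a binding partner of periplakin, fell by 0.78 at 10 μM (adjusted p = 0.0285), and that call was lost in 10 of 16 alternative fits, 5 of which left out 1 array (trMCF clone 11 replicate 1, or either array of either dose) at changes of -0.79 to -0.65.

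Of 9 keratins measured, 2 fell at 10 μM against the untreated clone and none rose, beside 7.83% of all genes called in either direction. Their changes were below 0 for 6 and above for 3. The widest above 0 was that of KRT7, a keratin of simple epithelia, at 1.12 (95% interval 0.24 to 2.0, adjusted p = 0.141), with both 10 μM arrays above both clone arrays. KRT14, the acidic keratin of basal and myoepithelial cells, stood at 13.16 and 10.38 in MCF-10F, 11.66 and 12.15 in trMCF clone 11, 7.73 and 6.86 at 1 μM and 5.40 and 5.09 at 10 μM. Its 2 MCF-10F arrays were farther apart than those of any of the 10 desmosome genes, and all ATRA arrays lay below both untreated groups. At 10 μM KRT14 fell by 6.66 in log2 units relative to the clone (adjusted p = 0.00836), and at 1 μM its change was -4.61 (adjusted p = 0.0663). KRT16, a keratin of activated epidermis, fell by 3.61 at 1 μM, with an adjusted p of 0.0281, and at 10 μM by 4.29, with one of 0.00325. Without either 10 μM array the falls at 10 μM missed the threshold at changes of -6.82 and -6.50 for KRT14 (adjusted p = 0.0955 and 0.0893) and of -4.28 and -4.30 for KRT16 (adjusted p = 0.0554 and 0.0531), and the fall of KRT16 at 1 μM missed it without trMCF clone 11 replicate 1 (-3.56, adjusted p = 0.0567) or either 1 μM array (-3.55 and -3.66, adjusted p = 0.328 and 0.333).

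At 10 μM limma called 7.83% of all genes against the clone and 2.56% against MCF-10F, in either direction. Of 6 hemidesmosome genes, which anchor basal cells to the matrix below, ITGA6 fell at 10 μM against the clone (-1.05, adjusted p = 0.0194) and MCF-10F (-1.09, adjusted p = 0.0288). Of 12 transcription factors of stratified and junctional genes, GRHL3, a Grainyhead factor of epidermal differentiation, fell at 10 μM against the clone (-1.96, adjusted p = 0.00836) and MCF-10F (-1.37, adjusted p = 0.0392). These 4 calls were lost in 6, 7, 3 and 9 of 16 alternative fits, in each without either 10 μM array, at changes of -1.15 and -0.94, -1.20 and -0.98, -1.81 and -2.10, and -1.22 and -1.52. The calls of ITGA6 and that of GRHL3 against MCF-10F were also lost without either 1 μM array (-1.05, -1.09 and -1.37), and those against MCF-10F without either MCF-10F array (-1.13 and -1.05 for ITGA6, -1.20 and -1.54 for GRHL3). In limma 0 of 10 adherens junction genes and 0 of 7 proteases and inhibitors were called in any of the 6 comparisons, with 0 to 5 and 0 to 2 at an unadjusted p under 0.05. No share of all genes stands beside these unadjusted counts, so nothing is read from them. At 10 μM against the clone their median changes were -0.01 and 0.30, beside -0.47 for the 10 desmosome genes and -0.01 for all genes. Whether these medians differ was not tested. The adherens junction list was not flat, with 5 changes above 0 and 5 below at 10 μM against the clone. The widest were those of NECTIN4 (-1.75, adjusted p = 0.0778) and CDH3 (-1.09, adjusted p = 0.067). In each, both 10 μM arrays lay below both clone arrays. The clone arrays of NECTIN4 stood far apart, at 9.57 and 7.90. In the clone over MCF-10F, NECTIN4 gave 1.41 and CDH3 0.95 (adjusted p = 0.202 and 0.156).

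**Figure D4:**
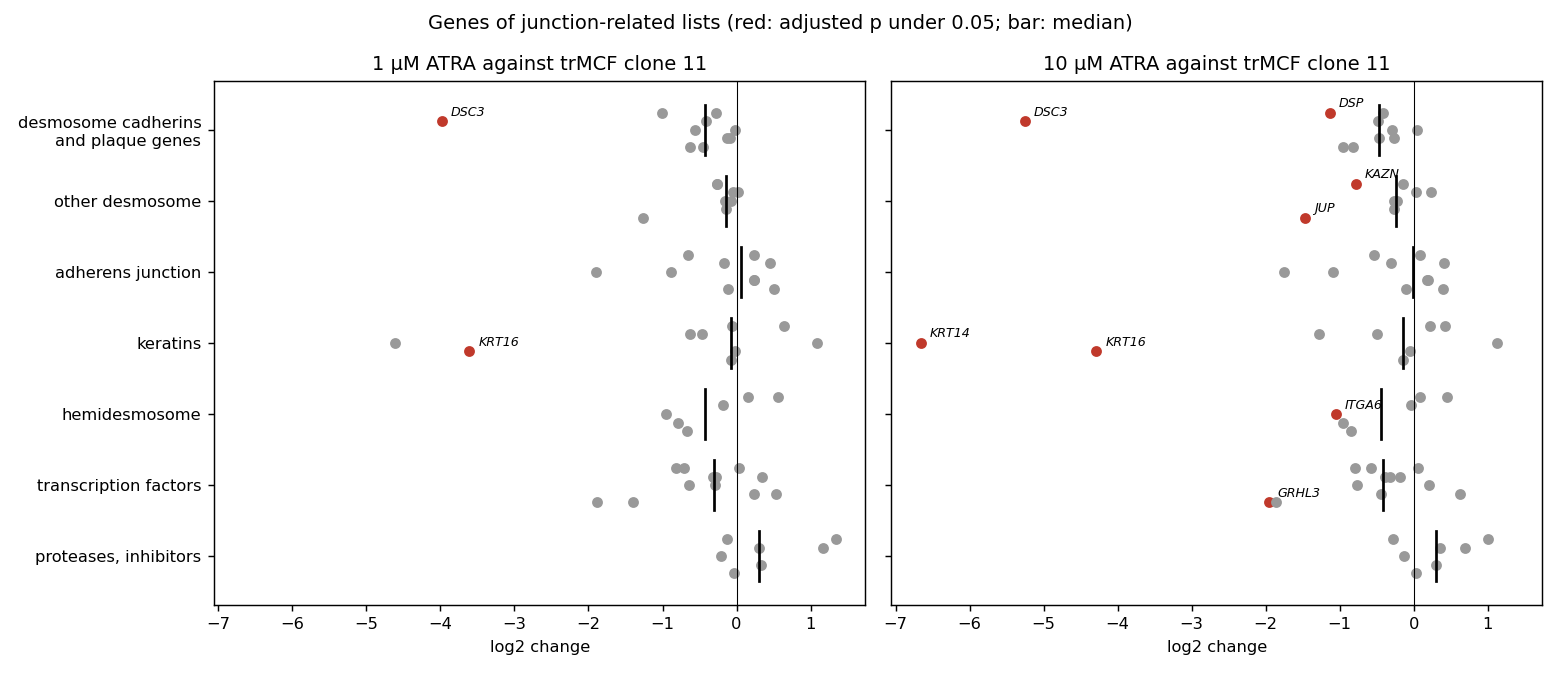
Log2 change of each gene of 7 lists in ATRA against trMCF clone 11, at 1 μM (left) and 10 μM (right), with a bar at the median of each list and red points where the adjusted p was under 0.05. DSC3, KRT14 and KRT16 lie farthest to the left, and the called genes of the right panel all lie below 0.

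The levels of DSC3 over the 8 arrays, each gene centred on its own mean, were most like those of SPRR1B among 14087 other genes with a mean log2 level of at least 5, at a root mean square difference of 0.65. VAV3 and KRT16 followed at 0.688 each, RAB38 at 0.69 and STOM at 0.754. SPRR1B, a cornified envelope gene of squamous cells, had group means of 10.31 in MCF-10F, 10.69 in trMCF clone 11, 7.49 at 1 μM and 6.69 at 10 μM, the same order as DSC3. The levels of DSP had closer matches, RNF135 at 0.0901, TSC22D1 at 0.098, IDH2 at 0.1, ANO6 at 0.103 and SIDT2 at 0.104. DSP ranges over 1.13 between its group means and DSC3 over 5.25, so the 2 sets of distances are not on 1 footing. The likeness is a description over 8 arrays of 4 groups.

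Markers of cell types were summed on each array. The summed signal of the 8 epithelial markers, on the linear scale, was 36140 to 54125 in MCF-10F, 38101 to 39726 in trMCF clone 11, 29314 to 31763 at 1 μM and 26691 to 27587 at 10 μM. It was lower on every ATRA array than on any untreated array, as DSC3 and DSP were. The list did not move as 1, since at 10 μM against the clone 6 changes lay below 0 and 2 above. KRT5 stood at 12.56 and 12.84 in the clone and 11.56 and 11.29 at 10 μM. EPCAM, among the 2 above, stood at 12.55 and 12.77 and then 12.69 and 12.68. KRT14, which is on that list, was the 1 epithelial marker called at 10 μM against the clone. The endothelial list summed to 254 to 1222 in MCF-10F, 317 to 420 in the clone, 742 to 926 at 1 μM and 991 to 1354 at 10 μM, and the 4 leukocyte markers measured to 168 to 521, 215 to 307, 553 to 645 and 712 to 782. PECAM1 and CD14 had the widest changes of these lists at 10 μM against the clone, at 2.39 (adjusted p = 0.206) and 2.27 (adjusted p = 0.171), and the other markers lay between -0.67 and 0.45. In limma 0 endothelial and 0 leukocyte markers were called in any comparison, with 0 to 2 and 0 to 1 at an unadjusted p under 0.05. These unadjusted counts are given without the share of all genes. PTPRC, the leukocyte common antigen, was dim. The sums of adipocyte, cardiac muscle and melanocyte markers lay between 102 and 167 on all arrays, with ADIPOQ dim. Of the fibroblast markers summed above, 3 of 10 fell in trMCF clone 11 against MCF-10F, where DSC3 rose. Over all genes, limma called 4.53% in that comparison, in either direction. The part of these shifts in the desmosome results was not tested.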

How the data were processed

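RNA of 8 samples, 2 in each of 4 groups, was measured on Affymetrix U133 Plus 2.0 arrays. The authors deposited 1 normalized, linear-scale intensity for every probe set on every array. Their methods name MAS 5.0 (global scaling) as well as Iterative Plier (GeneSpring) and do not assign the values to either. Detection calls were not used here, and the number of arrays limits the precision.

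The log2 of each intensity was used without rescaling. Tests covered 54613 of 54675 probe sets, all but 62 controls, and the annotation gives 1 gene to 41091 of them, several to 1801 and no gene to 11721. Fits were made with R 4.3.3 and limma 3.58.1 (lmFit and eBayes, a mean for each group, two-sided). Comparisons among MCF-10F, trMCF clone 11 and 1 μM used 1 fit of 6 arrays, as the study grouped them, and those with 10 μM a fit of all 8. Residual degrees of freedom were 3 and 4, and prior ones 2.91 and 3.18. A gene rose or fell where its Benjamini-Hochberg adjusted p, over all probe sets, was under 0.05. The fit was tested on simulated data. Arrays of 2 groups do not overlap where both of one lie above both of the other.

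All 10 genes are named, and of other lists up to 4 genes with the smallest p in a comparison. Of these, genes that were called are given. KRT7, NECTIN4, CDH3, PECAM1 and CD14 were not called and are given for their wide changes, and some markers by level. Genes most like DSC3 and DSP are the 5 with the smallest root mean square difference. The genes and lists were chosen with earlier results of these data known. Promoters are RefSeq windows. Alternatives were a fold of 2 with an unadjusted p of 0.05, another set of arrays, a trended robust prior, quantile normalization, dropping the 33% of probe sets that were dimmest, the replicate number as a block, a floor of 16, the mean or the next brightest probe set of a gene, and leaving out each array in turn. Tables were read with pandas 2.3.3 and figures drawn with matplotlib 3.10.9.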

Additional observations from a re-analysis of the deposited data

How the results depend on the processing

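The counts of members called were 1, 1, 1, 2, 2 and 0 in the order of comparisons clone against MCF-10F, 1 μM against the clone, 1 μM against MCF-10F, 10 μM against the clone, 10 μM against MCF-10F and 10 μM against 1 μM. With 2 arrays a group they moved with most settings. For most settings the share of all probe sets called is not given, so these counts show only which member calls moved. A fold of 2 with an unadjusted p gave 2, 2, 3 and 1 in the second, 1 μM against MCF-10F, the fifth and between doses, PKP3 being added in the fifth. All 8 arrays in the fit gave 2 in each of the first 3, and only the 4 arrays compared gave 0 in the first and 1 in the fourth. A floor of 16 gave 0 in the first 3. The trended robust prior gave 2 in the second and 4 in the fourth, and the mean of all probe sets 2 and 6, with 3 in the fifth (PKP3 added). Quantile normalization and leaving out the dimmest probe sets each gave 3 in the fourth, with DSG3 added. The next brightest probe set gave 1 in the fifth. Leaving out 1 array gave 0 to 2 in the first and second, 0 to 1 in 1 μM against MCF-10F, 1 to 3 in the fourth and 1 to 4 in the fifth (4 without either clone array, 1 without any array of either dose). The replicate block gave 0 members in 1 μM against MCF-10F, where DSC3 stood at -2.23 with an adjusted p of 0.0663, and changed no other member's call. The labels do not say that a replicate number marks a shared culture, and deviations of same-numbered arrays correlated at -0.0562 to 0.351, so the numbers were not taken as pairs.

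Among the changes named, signs turned only where the test had made no call. Leaving out 1 array gave ranges that cross 0 for DSG3 (-0.04 to 0.55) and PKP1 (-0.02 to 0.67) in the clone against MCF-10F, PKP2 at 1 μM against the clone (-0.20 to 0.03), PKP1 at 1 μM against MCF-10F (-0.58 to 0.11), DSG1 at 10 μM against the clone (-0.00077 to 0.07), and DSG2 (-0.12 to 0.09) and PKP1 (-0.31 to 0.38) at 10 μM against MCF-10F. The next brightest probe set turned PKP3 at 1 μM against the clone (0.02), PKP2 at 1 μM against MCF-10F (-0.21), DSG2 at 10 μM against MCF-10F (0.16) and PKP2 between the doses (0.18). The mean of probe sets turned PKP2 at 1 μM (-0.0016) and DSG2 at 10 μM (0.07) against MCF-10F, and quantile normalization turned DSG1 at 1 μM against the clone (0.0011). The cause was not tested. Low signals limit what DSG1, PKP1 and the dimmest probe set of DSC3 can show.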
